A study of Homo sapiens with 8 samples.

Results

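The mRNAs of 10 glycolytic enzymes were followed in HEK293T, an established human cell line of embryonic kidney origin: HK2, GPI, PFKP, ALDOA, TPI1, GAPDH, PGK1, ENO1, PKM and LDHA. They were taken by gene symbol, from a list chosen with earlier results of these data known, as 10 of the 59414 genes in the count table. The cells carried RNA editors aimed at P-bodies (processing bodies), cytoplasmic granules that hold repressed mRNA with decay factors. The A-to-I editor (the TRIBE approach) turns adenosine into inosine and the C-to-U editor (the STAMP approach) turns cytidine into uridine, and the share of edited reads of a gene is its editing score. The 8 libraries fell into 4 groups of 2: sorted P-bodies (50 ng of RNA as library input), cytosol (100 ng), cells given siRNA against EDC4 (siEDC4, 500 ng of total RNA) and cells given control siRNA (siNC, 500 ng). All 4 groups carried the editors, and no library without them was analysed here. EDC4 is a scaffold of the decapping machinery.

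Glycolysis splits glucose into pyruvate in the cytosol and yields ATP and NADH. Hexokinase, glucose-6-phosphate isomerase, phosphofructokinase, aldolase and triosephosphate isomerase prepare the sugar and consume ATP. GAPDH, phosphoglycerate kinase, phosphoglycerate mutase, enolase and pyruvate kinase then recover energy, and lactate dehydrogenase regenerates NAD from NADH. The mRNAs of this pathway are among the abundant and heavily translated ones of proliferating cells. The mutase mRNA PGAM1 is not among the 10 and is given beside them to complete the pathway.

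Coding sequence differed among these mRNAs in its use of G and C at the third base of a codon. The opening 60 coding bases, from the GENCODE v29 transcripts on GRCh38, are shown for the mRNA that was higher in sorted P-bodies (HK2), the one that stood out in editing (LDHA) and the pair with the largest falls (TPI1 and GAPDH). Capitals mark a G or C at the third base of a codon.
HK2: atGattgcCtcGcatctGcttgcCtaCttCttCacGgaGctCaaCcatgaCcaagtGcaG
TPI1: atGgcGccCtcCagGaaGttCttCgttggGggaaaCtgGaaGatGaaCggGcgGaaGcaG
GAPDH: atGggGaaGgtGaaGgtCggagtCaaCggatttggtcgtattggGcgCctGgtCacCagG
LDHA: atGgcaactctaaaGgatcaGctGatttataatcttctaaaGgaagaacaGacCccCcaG
Of the 20 codons shown, 15 ended in G or C in HK2, 18 in TPI1, 14 in GAPDH and 9 in LDHA. Over the whole coding sequence the share was 71.2% in HK2, 66% in TPI1, 71.7% in GAPDH and 46.5% in LDHA. The 20 codons therefore do not give the order of the whole sequences. HK2 lies on the plus strand of chromosome 2 (74834127 to 74893359, hg38), TPI1 and GAPDH on the plus strand of chromosome 12 (6867119 to 6870948 and 6534512 to 6538374) and LDHA on the plus strand of chromosome 11 (18394560 to 18408425).

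Gene counts summed to between 21186963 and 23716926 per sort library. The editing tables of the sort held between 12048147 and 15947999 reads per library, and those of the knockdown between 5697417 and 6294767. Of 6 markers that HEK293T is known for, 5 reached 1 TPM in each sort library, and the summed level of 7 blood cell markers stayed between 1.68 and 2.60 TPM. Skeletal muscle and liver markers summed to at most 1.84 TPM. All 4 markers of epithelial tumour lines also reached 1 TPM in each library, with sums between 52.6 and 73.0 TPM. Of 6 fibroblast markers 3 did, with sums between 11.5 and 15.1 TPM. These markers therefore do not single out HEK293T. The labels do not say whether the libraries within a group stem from separate cultures. A p-value therefore reflects only how much these libraries vary, which may be technical variation. The sorted P-body libraries differed from each other more than the cytosol libraries did (chi-square per degree of freedom of the counts, 22.5 and 3.00).

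The sort asked which mRNAs the P-body fraction holds. Most glycolytic enzyme mRNAs made up a smaller share of the sorted P-body RNA than of the cytosolic RNA, and HK2 made up a larger one. Of the 10, 1 was higher and 7 were lower at an adjusted p under 0.05 (edgeR quasi-likelihood test), where 28.8% of the 18745 genes tested were higher and 29% lower. Their median log2 fold change was -0.83, beside -0.03 over all genes tested. Together they took 0.278 and 0.223% of the counts in the sorted P-body libraries, against 0.536 and 0.562% in the cytosol libraries. Library input was lower for sorted P-bodies than for cytosol, so fraction and amount of input RNA cannot be told apart. In bulk libraries, fewer particles that hold an mRNA and less of it in each particle cannot be told apart.

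**Figure D1:**
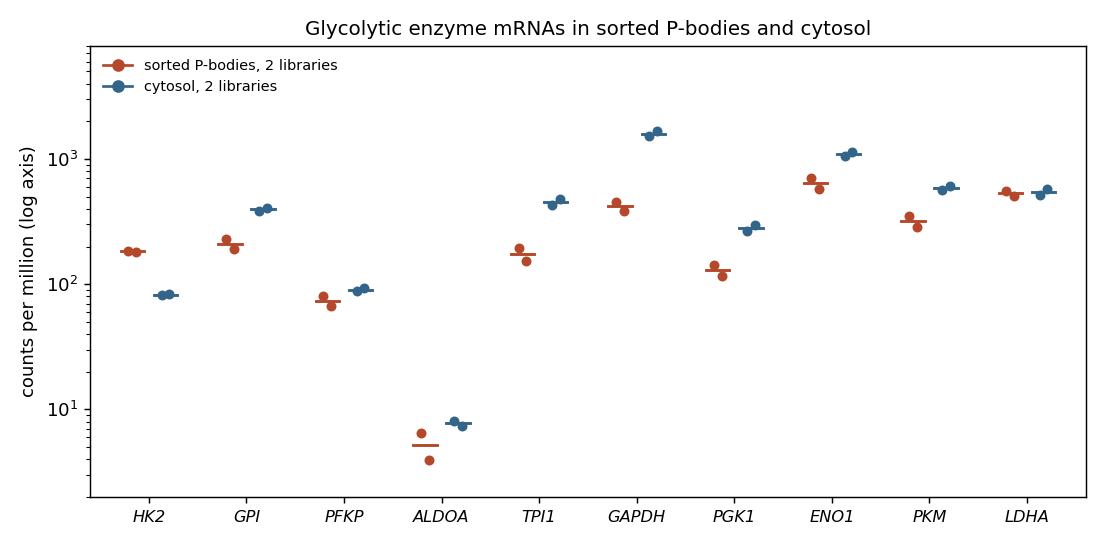
TMM-scaled CPM (log axis) of the 10 mRNAs in pathway order, in the 2 sorted P-body libraries (left of each pair) and the 2 cytosol libraries (right); points are libraries and bars their mean. HK2 stood higher in sorted P-bodies (185 and 181 against 82.3 and 83.0), GAPDH showed the widest gap (453 and 383 against 1517 and 1660), and the fractions overlapped for LDHA.

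In the preparatory steps, HK2 was higher, GPI, TPI1 and, narrowly, ALDOA were lower, and PFKP did not pass. HK2, the inducible hexokinase that traps glucose as glucose-6-phosphate, was at 185 and 181 CPM (read counts scaled to a common TMM library size) in sorted P-bodies, against 82.3 and 83.0 CPM in cytosol. Both sorted libraries lay above both cytosol libraries, by 2.21-fold (log2 fold change 1.14 ± 0.10 SE, adjusted p = 1.6e-05, edgeR), and 87.7% of the genes tested had a lower fold change. GPI, the isomerase that makes fructose-6-phosphate, was at 228 and 193 CPM in sorted P-bodies, against 387 and 407 CPM in cytosol (-0.92 ± 0.12, adjusted p = 0.00015, edgeR). The groups did not overlap.

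TPI1, which interconverts the triose phosphates, was at 194 and 154 CPM in sorted P-bodies, against 433 and 480 CPM in cytosol. Both sorted libraries lay under both cytosol ones, at a log2 fold change of -1.39 ± 0.14 (adjusted p = 2.5e-05, edgeR). PFKP, the platelet-type phosphofructokinase of the committed step, was at 80.6 and 66.9 CPM in sorted P-bodies, against 87.7 and 92.8 CPM in cytosol. Those libraries did not overlap either, but the log2 fold change of -0.29 ± 0.12 missed the threshold (adjusted p = 0.058, edgeR) and passed it with the replicate block (-0.30, adjusted p = 0.039). The fall of PFKP also passed with library size as the only scaling (-0.49), without a filter on low counts (-0.33) and with the gene-length trend removed (-0.54). With DESeq2 it did not pass (-0.26, adjusted p = 0.153). The estimate was -0.44 and -0.18 with sorted library 1 or 2 left out, and -0.35 and -0.26 with cytosol library 1 or 2 left out.

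ALDOA, the aldolase of the set, was the rarest, with 6.45 and 3.97 CPM in sorted P-bodies, against 8.14 and 7.40 CPM in cytosol. The fall just passed (-0.56 ± 0.22, adjusted p = 0.047, edgeR), and the call was lost without sorted library 2 (-0.29) or cytosol library 1 (-0.52), with DESeq2 (adjusted p = 0.099) and with the gene-length trend removed (adjusted p = 0.065). Its level is uncertain, since 43.0% of its exonic bases are shared with AC093512.2, an overlapping row on the same strand which held 87 and 50 counts in sorted P-bodies, against 116 and 90 counts in cytosol. ALDOA itself held 142 and 76 counts in sorted P-bodies, against 199 and 185 counts in cytosol. The part of the overlap in these counts was not tested.

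The mRNAs of the energy-yielding steps fell, PGAM1 apart. GAPDH, the dehydrogenase that forms NADH, was at 453 and 383 CPM in sorted P-bodies, against 1517 and 1660 CPM in cytosol. Its levels in cytosol were 3.80 times those in sorted P-bodies, with no overlap (-1.93 ± 0.13, adjusted p = 4.8e-06, edgeR). PGK1, the kinase of the first ATP-forming step, was at 143 and 116 CPM in sorted P-bodies, against 265 and 295 CPM in cytosol (-1.11 ± 0.13, adjusted p = 7.6e-05, edgeR). Again every sorted library lay below every cytosol library.

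ENO1, the enolase that makes phosphoenolpyruvate, was at 701 and 578 CPM in sorted P-bodies, against 1062 and 1130 CPM in cytosol (-0.78 ± 0.13, adjusted p = 0.00061, edgeR). PKM, the pyruvate kinase that closes the pathway, was at 347 and 287 CPM in sorted P-bodies, against 563 and 608 CPM in cytosol (-0.88 ± 0.13, adjusted p = 0.00025, edgeR). Neither mRNA's groups overlapped. PGAM1 was at 164 and 137 CPM in sorted P-bodies, against 138 and 151 CPM in cytosol, and the ranges overlapped (0.06 ± 0.12, adjusted p = 0.692, edgeR). The sign of that estimate turned with library size as the only scaling (-0.14).

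LDHA, the lactate dehydrogenase subunit that favours lactate formation, was at 559 and 509 CPM in sorted P-bodies, against 514 and 572 CPM in cytosol. The ranges overlapped, and the estimate of -0.02 ± 0.12 did not pass (adjusted p = 0.877, edgeR). Within a library, LDHA had 1.23 and 1.33 counts per GAPDH count in sorted P-bodies, against 0.339 and 0.344 in cytosol. GAPDH had 2.29 ± 0.237 counts per HK2 count in sorted P-bodies, against 19.2 ± 1.11 in cytosol (SD, n = 2 each). These ratios need no scaling between libraries, and their groups did not overlap (two-sided exact permutation p = 0.333, which is the smallest p for groups of this size). They reuse the counts already tested, for members whose estimates differ, so they add no separate support.

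Scaling by library size alone moved the median of all genes to -0.23, and 4257 genes were higher and 6911 lower, beside 5401 and 5440 under TMM. The signs of the 10 estimates did not change under that scaling, and 8 of the members then passed downwards, PFKP being the added one. Other copies of these genes add some uncertainty. The count table held 65 rows named as GAPDH pseudogenes, whose summed counts were 0.681 and 1.41% of the GAPDH counts in sorted P-bodies, against 0.208 and 0.190% in cytosol. How reads with several matches were counted is not given in the sources used here.

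On a per-length scale the enzymes spanned a wide range within a fraction. In sorted P-bodies the order was GAPDH (720 ± 64.5 TPM), ENO1 (506 ± 53.5), LDHA (365 ± 13.0), TPI1 (265 ± 35.5), PKM (153 ± 16.1), HK2 (128 ± 1.81), PGK1 (98.5 ± 11.7), GPI (81.4 ± 7.34), PFKP (39.4 ± 4.02) and ALDOA (5.60 ± 1.72; all SD, n = 2). In cytosol it was GAPDH (2113 ± 94.2 TPM), ENO1 (670 ± 16.7), TPI1 (539 ± 29.6), LDHA (287 ± 16.1), PKM (218 ± 7.43), PGK1 (164 ± 9.37), GPI (119 ± 2.00), HK2 (44.6 ± 0.586), PFKP (37.2 ± 0.775) and ALDOA (6.48 ± 0.560; all SD, n = 2). HK2 therefore stood above PGK1 and GPI in sorted P-bodies and below both in cytosol, and LDHA stood above TPI1 in sorted P-bodies and below it in cytosol. No neighbours in either order overlapped over their 2 libraries. TPM values were set side by side only between genes of 1 fraction, since the scale depends on the lengths of all the other RNAs in it.

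Isozymes of the same step did not always follow their relatives. HK1, the housekeeping hexokinase, averaged 167 ± 12.1 CPM in sorted P-bodies, against 123 ± 1.31 CPM in cytosol (SD, n = 2 each; 0.44 ± 0.11, adjusted p = 0.0062, edgeR). HK2 had 1.06 and 1.14 counts per HK1 count in sorted P-bodies, against 0.676 and 0.671 in cytosol. LDHB, the subunit that favours lactate oxidation, averaged 47.7 ± 4.82 CPM in sorted P-bodies, against 19.8 ± 0.286 CPM in cytosol (1.27 ± 0.11, adjusted p = 1.3e-05, edgeR), so LDHA had 10.9 and 11.5 counts per LDHB count in sorted P-bodies, against 25.6 and 29.1 in cytosol. PFKP had 0.762 and 0.790 counts per count of PFKL, the liver-type phosphofructokinase, in sorted P-bodies, against 0.764 and 0.790 in cytosol, so the groups overlapped for this pair. Against PFKM, the muscle-type enzyme, PFKP had 0.826 and 0.742 counts per count in sorted P-bodies, against 1.07 and 1.08 in cytosol, without overlap.

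The genes around the pathway, from lists chosen with earlier results of these data known, showed a mixed picture in abundance, to be read against the 28.8% of all genes that were higher and the 29% that were lower. Of the other glycolytic isozymes, 2 of 11 tested were higher and 2 lower, with LDHB as the largest rise and ALDOC, the brain-type aldolase, as the largest fall (-1.43, on 44 and 16 counts in sorted P-bodies, against 92 and 101 in cytosol; -2.23 without sorted library 1 and -0.98 without sorted library 2). Of the regulators of flux, 6 of 11 were higher and 1 lower, with TXNIP, an inhibitor of glucose uptake, as the largest rise (1.52) and PDK2, a kinase that inhibits pyruvate dehydrogenase, as the fall (-0.93). Of the glucose and lactate transport genes, 2 of 7 were higher and 2 lower, with the monocarboxylate transporter SLC16A7 (1.33; 0.84 without sorted library 2) and the transporter chaperone BSG (-1.50) at the ends. The median log2 fold change of these lists was 0.05, 0.32 and 0.18.

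The pentose phosphate pathway, which branches off after hexokinase, had 1 of 9 genes higher, the epimerase RPE (0.76), and 7 lower, with the transketolase-like TKTL1 as the largest fall (-2.54), and a median of -0.62. TKTL1 had only 7 and 2 counts in sorted P-bodies, against 27 and 37 in cytosol, and stood at -3.57 without sorted library 1 and at -2.03 when sorted library 2 was left out. Gluconeogenesis and glycogen genes had 8 of 11 higher and 2 lower, with the glycogen branching enzyme GBE1 at 1.34, the phosphatase G6PC3 at -1.54 and a median of 0.63. Pyruvate dehydrogenase and the citric acid cycle had 7 of 24 higher, SDHA (succinate dehydrogenase) the most at 1.45, and 13 lower, the malate dehydrogenase MDH2 the most at -1.43, with a median of -0.41. The NADH shuttles had 3 of 8 higher, the glycerophosphate dehydrogenase GPD2 the most at 0.88, and 3 lower, the carrier SLC25A11 the most at -0.83. The hypoxia and MYC regulators had 2 of 11 higher, led by HIF1A, the hypoxia-inducible factor (1.09), and 4 lower, with the glucose-sensing factor MLXIPL at -1.20. Adjusted p for the genes named from these lists lay at or below 0.0043 (edgeR).

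The sort's A-to-I table asked which mRNAs carried more editing marks in the sorted particles. Scores were higher there for most genes: the median gene scored 7.19 and 7.41% in the sorted P-body libraries, against 2.90 and 2.77% in cytosol. Of the 9 glycolytic mRNAs tested, 6 were higher and 0 lower (edgeR on edited and unedited reads), where 73.5% of the 11303 genes tested were higher and 1.08% lower. Their median log2 odds ratio was 0.73, beside 1.46 over all genes. ALDOA was not tested, with 0 edited among 140 reads in sorted P-bodies and 1 among 280 in cytosol.

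**Figure D2:**
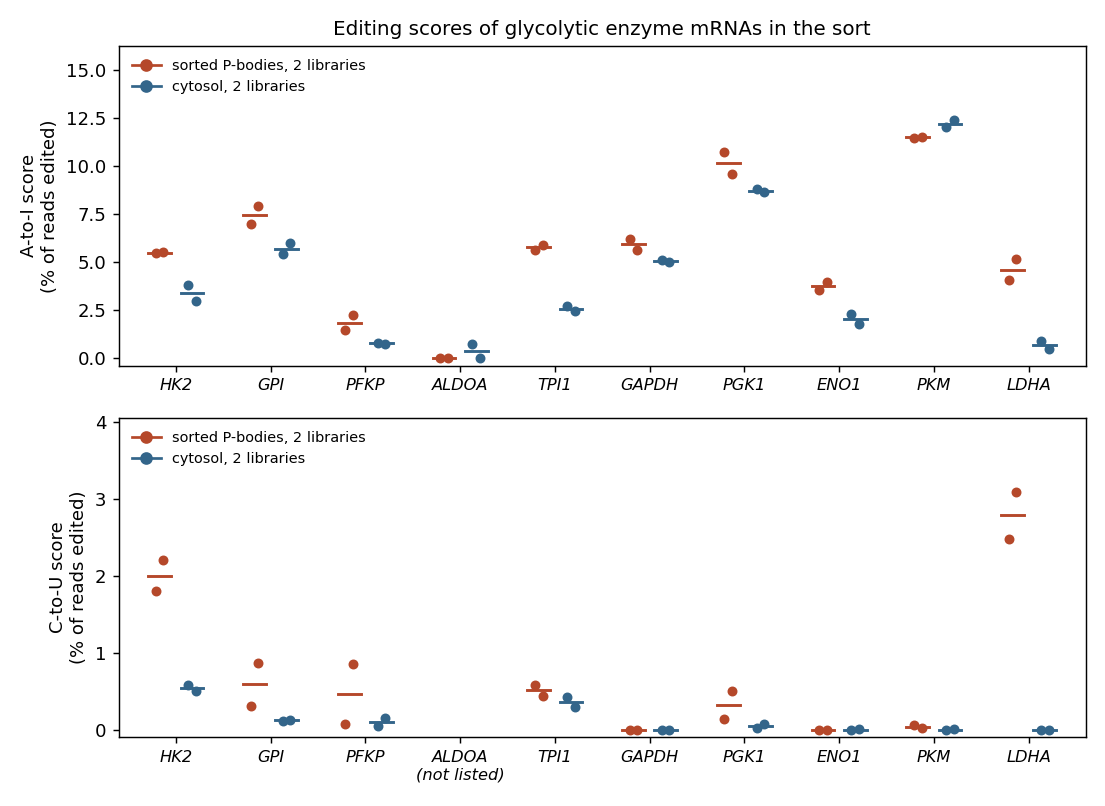
A-to-I scores (top) and C-to-U scores (bottom) as the percentage of a gene's reads that were edited, in the 2 sorted P-body libraries (left of each pair) and the 2 cytosol libraries (right); points are libraries, bars their mean, and axes differ between panels. PKM was the only member with a lower mean A-to-I score in sorted P-bodies (11.5 against 12.2%) apart from ALDOA, which had 1 edited read, and LDHA combined 2.79% with a listed 0 in the C-to-U panel.

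LDHA stood apart from the other members. It scored 4.05 and 5.18% in sorted P-bodies, against 0.887 and 0.483% in cytosol, which came from 293 of 7234 and 286 of 5519 reads in sorted P-bodies, against 71 of 8006 and 43 of 8899 in cytosol. The groups did not overlap, and the log2 odds ratio was 2.81 ± 0.21 (adjusted p = 9.6e-09, edgeR), above 92.9% of the genes tested. TPI1 scored 5.62 and 5.91% in sorted P-bodies, against 2.71 and 2.47% in cytosol (1.20 ± 0.15, adjusted p = 2.0e-06, edgeR).

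PKM lay at the other end. It scored 11.4 and 11.5% in sorted P-bodies, against 12.0 and 12.4% in cytosol. Both sorted libraries lay below both cytosol ones, at a log2 odds ratio of -0.10 ± 0.11 that did not pass (adjusted p = 0.416, edgeR). Its score in cytosol was above that of 99.5% of all listed genes and its score in sorted P-bodies above that of 76.4%. PGK1, also heavily edited in cytosol, scored 10.7 and 9.61% in sorted P-bodies, against 8.80 and 8.63% in cytosol, without overlap but short of the threshold (0.25 ± 0.14, adjusted p = 0.100, edgeR).

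GAPDH scored 6.22 and 5.64% in sorted P-bodies, against 5.09 and 5.01% in cytosol. The libraries did not overlap, and the log2 odds ratio of 0.25 ± 0.11 missed the threshold (adjusted p = 0.055, edgeR), which it passed among genes with at least 50 reads in every library (adjusted p = 0.048). HK2 scored 5.46 and 5.53% in sorted P-bodies, against 3.79 and 3.00% in cytosol (0.73 ± 0.19, adjusted p = 0.0022, edgeR). GPI scored 6.98 and 7.93% in sorted P-bodies, against 5.41 and 6.01% in cytosol (0.40 ± 0.14, adjusted p = 0.014, edgeR). Both were higher in each sorted library than in either cytosol library.

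ENO1 scored 3.54 and 3.98% in sorted P-bodies, against 2.28 and 1.76% in cytosol (0.92 ± 0.14, adjusted p = 1.5e-05, edgeR). PFKP scored 1.45 and 2.26% in sorted P-bodies, against 0.785 and 0.750% in cytosol (1.22 ± 0.38, adjusted p = 0.0087, edgeR). PGAM1 scored 3.09 and 3.12% in sorted P-bodies, against 0.831 and 1.55% in cytosol (1.39 ± 0.26, adjusted p = 0.00015, edgeR). None of these groups overlapped. The calls of GPI and PFKP were lost without sorted library 2 (0.31 and 0.93) and with limma on log2 scores (adjusted p = 0.077 and 0.081), and that of ENO1 narrowly with limma (adjusted p = 0.0504).

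Set against the general rise, most members moved less than the typical gene. With each library centred on its median score, 16.1% of genes were higher and 13.1% lower (1821 and 1486 genes, beside 8311 and 122 without centring). Of the 9 members, 1 was then higher and 6 lower. LDHA was the one above the shift (1.38 ± 0.19, adjusted p = 1.3e-05, edgeR), and below it lay PKM (-1.53), GAPDH (-1.18), PGK1 (-1.17), GPI (-1.03), HK2 (-0.70) and ENO1 (-0.51), with adjusted p from 1.1e-10 to 0.0067. PFKP (-0.20) and TPI1 (-0.23) did not pass. HK2 was thus higher in abundance in sorted P-bodies and below the general shift in A-to-I score.

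**Figure D3:**
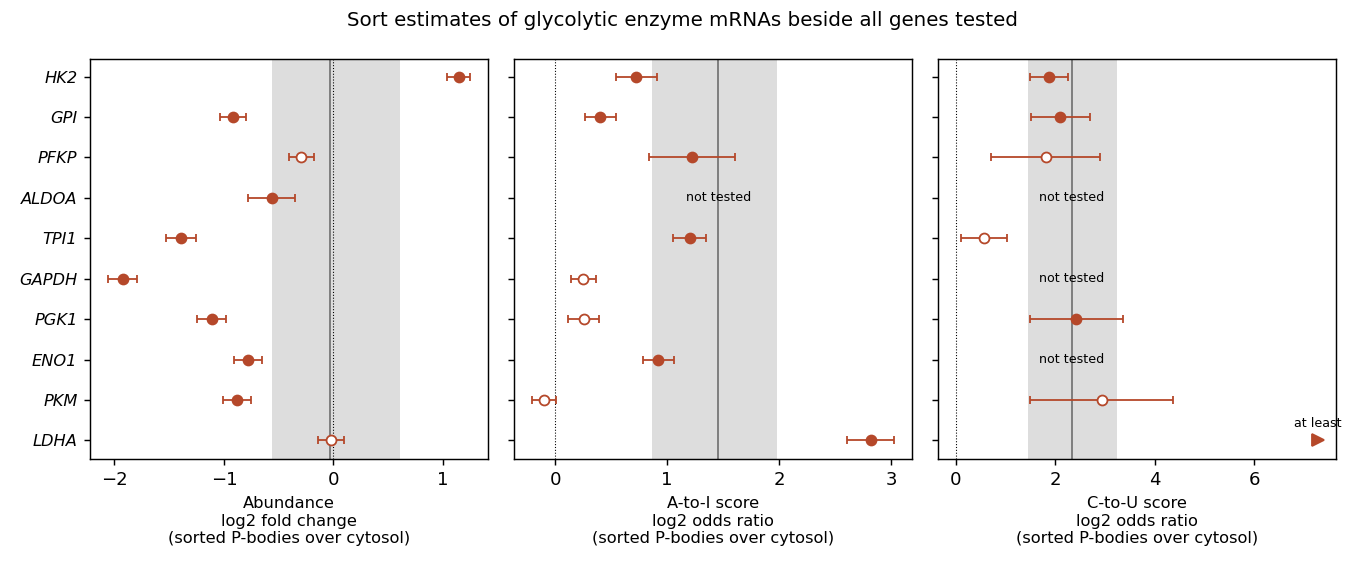
Estimates of sorted P-bodies over cytosol for the 10 mRNAs in abundance (log2 fold change), A-to-I score and C-to-U score (log2 odds ratios), with SE; filled points passed an adjusted p of 0.05, and open ones did not. The grey line and band are the median and the quartiles of all genes tested, and the LDHA arrow is the log2 of its lower bound of 155-fold. That bound takes it that no site filter emptied the LDHA score in cytosol. GAPDH, PGK1, GPI and PKM lay left of the band in both abundance and A-to-I score, and LDHA right of it in both editing panels.

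For the lists around the pathway, A-to-I calls are to be read against the 73.5% of all genes that were higher. Counts of higher and lower genes were 4 and 0 of 7 tested (other isozymes), 8 and 0 of 10 (regulators of flux), 4 and 0 of 5 (transport), 5 and 0 of 8 (pentose phosphate), 3 and 0 of 10 (gluconeogenesis and glycogen), 18 and 0 of 24 (pyruvate dehydrogenase and citric acid cycle), 8 and 0 of 8 (NADH shuttles) and 9 and 1 of 10 (hypoxia and MYC regulators). With each library centred on its median, where 16.1% of all genes were higher and 13.1% lower, gluconeogenesis and glycogen genes had 1 higher and 6 lower, pentose phosphate genes 1 and 4, and pyruvate dehydrogenase and citric acid cycle genes 4 and 5. The NADH shuttles then had 4 higher and 0 lower, transport 2 and 0, regulators of flux 1 and 0, other isozymes 0 and 1, and the hypoxia and MYC regulators 0 and 1. In the uncentred test, the succinyl-CoA ligase subunit SUCLG2 rose the most (5.02 ± 0.36), with 147 edited among 1925 reads in sorted P-bodies and 7 among 2871 in cytosol. GOT2, a transaminase of the malate-aspartate shuttle, had 3.13 ± 0.25, and the glucose transporter SLC2A1 3.01 ± 0.34. RPE had 2.48, the bifunctional enzyme PFKFB2 2.26, the glycogen precursor enzyme UGP2 2.24, the oxygen sensor EGLN3 2.17 and the ADP-dependent glucokinase ADPGK 1.88 (0.72 without sorted library 2, where it did not pass, and 2.69 without sorted library 1). MLXIPL fell, with 0 edited among 214 reads in sorted P-bodies and 11 among 682 in cytosol (adjusted p = 0.042, edgeR), a call lost with the replicate block (adjusted p = 0.062). It was also lost without either sorted library (adjusted p = 0.202, edgeR and 0.075).

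The C-to-U editor gave another reading of the same fractions. The median gene scored 2.76 and 3.13% in the sorted P-body libraries, against 0.633 and 0.595% in cytosol, and 68% of the 10613 genes tested were higher and 0.292% lower (edgeR). Of the 7 members tested, 4 were higher, LDHA, HK2, GPI and PGK1, and 0 were lower. Their median log2 odds ratio was 2.10 with LDHA at its bound, beside 2.28 over all genes with those at 0 at their bound.

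LDHA was again the extreme. Its edited reads numbered 180 of 7230 and 171 of 5524 in sorted P-bodies (2.49 and 3.10%), against 0 of 7996 and 0 of 8893 in cytosol. A listed 0 over both cytosol libraries allows a score of up to 0.0178%, so the score was at least 155-fold higher in sorted P-bodies over a floor of 3 edited reads for the group (adjusted p = 1.8e-06, edgeR). The calling of edited sites is not given in the sources used here. A site filter could also list a 0, and the bound takes it that none did. In the siNC libraries of the separate knockdown, made from total RNA, LDHA C-to-U scores lay between those of the sorted P-body libraries. How this bears on the listed 0 in cytosol was not tested. Read counts carry no molecular identifiers, so limits and floors cover counting error only.

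Edited reads of HK2 numbered 50 of 2766 and 50 of 2262 in sorted P-bodies (1.81 and 2.21%), against 10 of 1725 and 9 of 1760 in cytosol (0.580 and 0.511%). The groups did not overlap (1.88 ± 0.38, adjusted p = 0.00093, edgeR). GPI scored 0.316 and 0.867% in sorted P-bodies, against 0.123 and 0.130% in cytosol (2.10 ± 0.59, adjusted p = 0.0075, edgeR). PGK1 scored 0.144 and 0.513% in sorted P-bodies, against 0.022 and 0.082% in cytosol (2.42 ± 0.93, adjusted p = 0.036, edgeR). Both had their higher sorted value in library 2, and both calls were lost without it (1.32 and 1.43) and with limma. Without sorted library 1 they stood at 2.77 and 3.23. The call of PGK1 was also lost without cytosol library 1 (1.82) and stood at 3.57 without cytosol library 2.

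The remaining members had few C-to-U marks. TPI1 scored 0.590 and 0.446% in sorted P-bodies, against 0.432 and 0.294% in cytosol (0.56 ± 0.47, adjusted p = 0.297, edgeR). PFKP had 1 of 1257 and 7 of 810 reads edited in sorted P-bodies, against 1 of 1796 and 3 of 1891 in cytosol (1.80 ± 1.10, adjusted p = 0.165, edgeR); it passed without sorted library 1 (2.94) and changed sign without sorted library 2 (-0.37). PKM had 3 of 5080 and 1 of 3365 in sorted P-bodies, against 0 of 9331 and 1 of 10026 in cytosol (2.93 ± 1.44, adjusted p = 0.090, edgeR). The TPI1 and PFKP ranges overlapped and those of PKM rested on 5 edited reads.

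GAPDH and ENO1 were nearly free of C-to-U marks. GAPDH had 0 edited among 10107 reads in sorted P-bodies, against 1 of 36075 in cytosol, and ENO1 had 0 of 15952 against 1 of 31475. A count of 0 allows a score of up to 0.0297% for GAPDH and 0.0188% for ENO1 in sorted P-bodies. Neither could be tested, and ALDOA was not in the table. With each library centred on its median, 11.3% of genes were higher and 4.56% lower (1204 and 484 genes, beside 7221 and 31 without centring). LDHA was then the 1 member higher and TPI1 the 1 lower (-1.71 ± 0.43, adjusted p = 0.020, edgeR).

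In the surrounding lists, C-to-U scores were higher for 4 of 9 other isozymes, 7 of 10 regulators of flux, 4 of 4 transport genes, 5 of 8 pentose phosphate genes, 3 of 9 gluconeogenesis and glycogen genes, 17 of 22 pyruvate dehydrogenase and citric acid cycle genes, 7 of 7 NADH shuttle genes and 6 of 10 hypoxia and MYC regulators, where 68% of all genes were higher. None in these lists was lower in that test. With each library centred on its median, where 11.3% of all genes were higher and 4.56% lower, 2 gluconeogenesis and glycogen genes were higher and 3 lower, and 1 regulator of flux was lower and 0 higher. Higher and not lower were then 5 pyruvate dehydrogenase and citric acid cycle genes, 2 transport genes, and 1 gene each of the pentose phosphate pathway, the NADH shuttles and the hypoxia and MYC regulators, and 0 other isozymes passed. CS, the citrate synthase, had 33 edited among 3870 reads in sorted P-bodies and 0 among 11881 in cytosol, or at least 33.8 times the cytosol score over the floor of 3 edited reads. PYGL, the liver-type glycogen phosphorylase, had 97 edited among 17697 reads in sorted P-bodies and 1 among 16886 in cytosol, with a log2 odds ratio of 8.43 without cytosol library 1 and of 5.32 without cytosol library 2. The oxygen-sensing ligase subunit VHL scored 2.59 ± 0.539% in sorted P-bodies, against 0.0931 ± 0.0220% in cytosol (SD, n = 2 each, here and for the next genes). The lactate transporter SLC16A1 scored 5.90 ± 1.42% in sorted P-bodies, against 0.389 ± 0.344% in cytosol (log2 odds ratio 4.04; 5.39 without cytosol library 1 and 3.28 without cytosol library 2). The pyruvate dehydrogenase kinase PDK4 scored 13.1 ± 0.455% in sorted P-bodies, against 1.91 ± 0.0389% in cytosol. LDHB, whose A-to-I score was listed at 0% in sorted P-bodies and averaged 0.142% in cytosol, had a C-to-U score of 3.30 ± 1.36% in sorted P-bodies, against 0.288 ± 0.408% in cytosol (adjusted p = 0.0047, edgeR). PGAM1 (5 edited among 4019 reads in sorted P-bodies and 0 among 5538 in cytosol), PGD and GOT2 also passed on 10 or fewer edited reads, and lost the call with limma. That of PGAM1 was also lost without cytosol library 1 (adjusted p = 0.061, edgeR) and without cytosol library 2 (adjusted p = 0.071, edgeR).

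LDHA, PGK1 and HK2 had the lowest G and C content in the 3' UTR among the members. The members' transcripts had a median of 51.9% G and C in the 3' UTR, beside 35.5% in genes higher in sorted P-bodies and 49.6% in genes lower there. G and C at the third base of a codon were at 68.6% in the members, beside 43.0% in the higher and 69.3% in the lower genes, and median mRNA length was 2535 bases, beside 4392 and 2411. LDHA had the lowest value at the third base (46.5%) and in the 3' UTR (37.2%), with an mRNA of 2416 bases. HK2 combined a 3' UTR of 40.8% with 71.2% at the third base and the longest mRNA of the set (5772 bases), and PGK1, which fell, had 39.6% in the 3' UTR. Among the 10 members the log2 fold change in the sort had a Spearman rho of -0.39 with the G and C content of the 3' UTR, beside -0.51 over 13346 protein-coding genes, and of -0.13 with that of the whole mRNA, beside -0.58 over 13560 genes. With G and C at the third base of a codon, rho was -0.04 among the members, beside -0.53 over 13560 genes. Values of different genes come from the same libraries, so these correlations are descriptions.

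**Figure D4:**
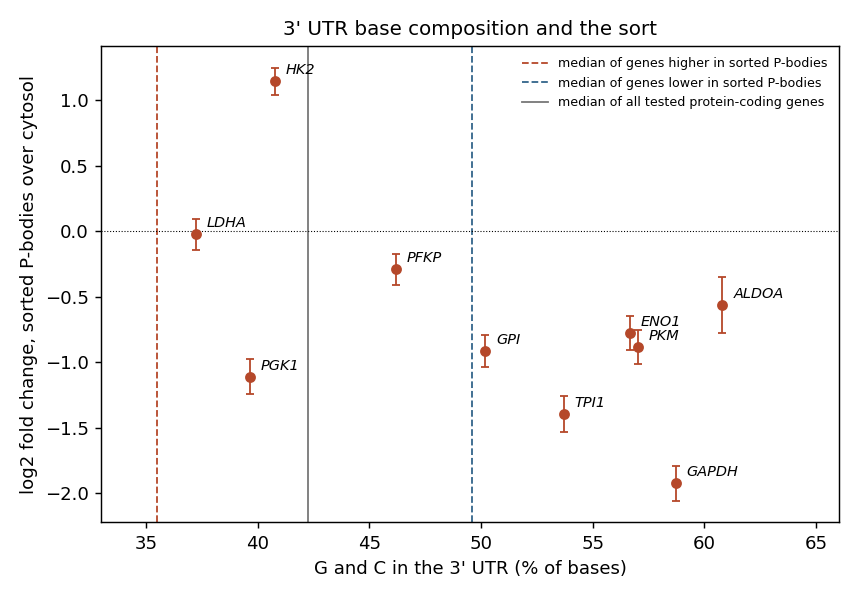
Log2 fold change of the 10 mRNAs in sorted P-bodies over cytosol (points, with SE) against the G and C content of their 3' UTR in percent; vertical lines are the medians of genes higher in sorted P-bodies (35.5%), of genes lower there (49.6%) and of all tested protein-coding genes (42.2%). PGK1 (39.6%) fell although its 3' UTR lay beside those of HK2 (40.8%) and LDHA (37.2%).

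The knockdown asked whether loss of EDC4 changes the mRNAs or their editing marks. EDC4 itself was at 40.3 and 32.7 CPM in siEDC4 libraries, against 110 and 106 CPM in siNC libraries (-1.56 ± 0.14, adjusted p = 2.6e-25, edgeR). Between the siNC libraries, reads per gene differed by little more than sampling noise (chi-square per degree of freedom 1.02 in each editing table), and these libraries were counted as 1 sample, so the spread came from the siEDC4 libraries. Their edited reads did vary beyond sampling noise (1.30 for A-to-I and 1.31 for C-to-U, beside 1.49 and 1.54 between siEDC4 libraries), and counts of calls with 4 separate libraries are given beside the pooled ones. None of the 9 members in the A-to-I table, whose reads columns served as counts, passed, where 0.432% of the 10642 genes tested were higher and 0.132% lower. DESeq2 called none of the 9 either. By edgeR, PGK1 alone among them had an unadjusted p under 0.05.

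The members' reads lay close together across the knockdown libraries. GAPDH was at 1678 and 1701 CPM in siEDC4 libraries, against 1710 and 1697 CPM in siNC libraries (-0.01 ± 0.10, adjusted p = 0.998, edgeR). HK2 was at 81.4 and 87.6 CPM in siEDC4 libraries, against 80.2 and 84.0 CPM in siNC libraries (0.04 ± 0.13, adjusted p = 0.991, edgeR). Both sets of values overlapped, and the estimates of the other members, PGK1 left aside, ran from -0.12 (LDHA) to 0.08 (PFKP).

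PGK1 was at 245 and 376 CPM in siEDC4 libraries, against 367 and 363 CPM in siNC libraries. The low value came from siEDC4 library 1 alone, library 2 lying above both siNC libraries, and the estimate of -0.23 ± 0.11 did not pass (adjusted p = 0.589, edgeR). With 4 separate libraries and the replicate block it passed (-0.26, adjusted p = 0.00699, edgeR), in a fit that called 521 genes, beside 154 genes for 4 libraries without the block and 60 with the siNC libraries pooled. ALDOA was listed in the knockdown's C-to-U table only, with 69 and 69 reads in siEDC4 libraries and 76 and 64 in siNC libraries, and 0 edited.

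Editing scores after the knockdown did not pass for any member, 0 of 9 for A-to-I and 0 of 7 for C-to-U, where 0% of genes passed in either direction. In the whole tables, 0 of 9157 genes passed for A-to-I and 0 of 9646 for C-to-U (edgeR, with 491 and 377 at an unadjusted p under 0.05; limma and 4 separate libraries also gave 0 in both, and 4 libraries with the replicate block 26 and 4). Library medians for A-to-I were 1.43 and 1.50% in siEDC4 libraries, against 1.19% in the pooled siNC reads, and for C-to-U 2.17 and 1.89% against 1.77%. With each library centred on its median, no member passed, where 0% of genes passed for A-to-I and 0% higher and 0.0104% lower for C-to-U. The members' median log2 odds ratio was 0.36 for A-to-I over 9 members, beside 0.31 over all genes, and 0.14 for C-to-U over 7, beside 0.20.

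**Figure D5:**
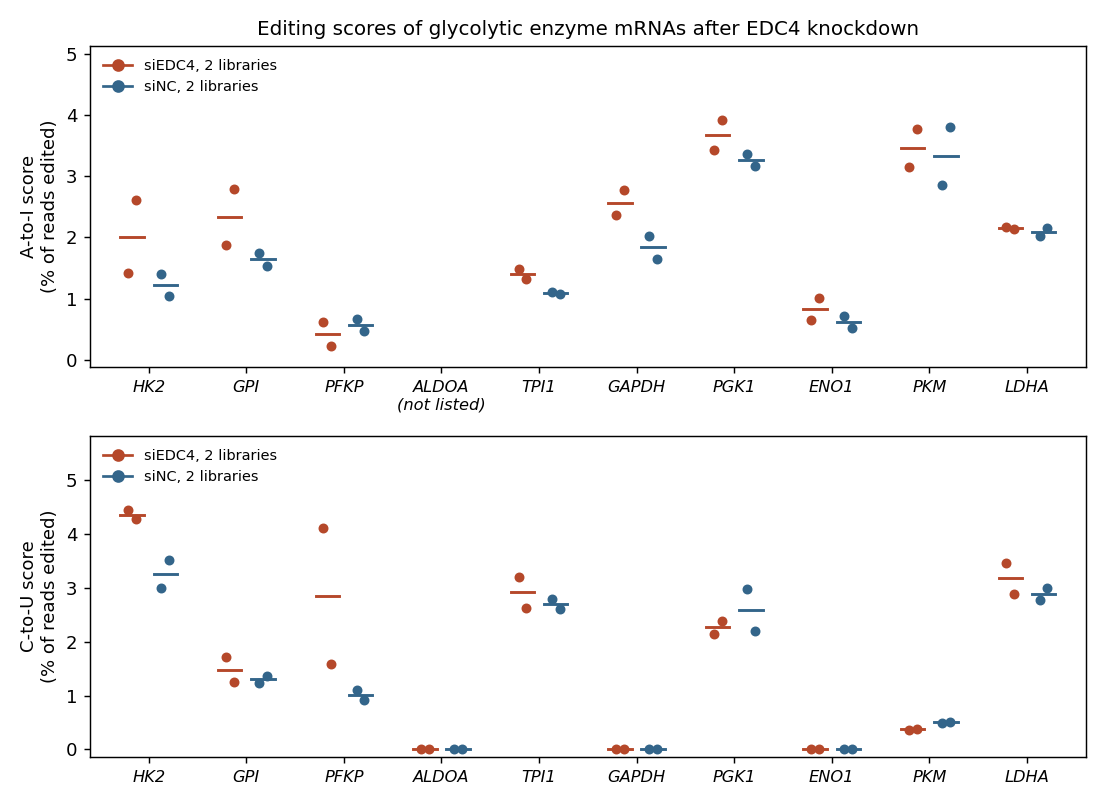
A-to-I scores (top) and C-to-U scores (bottom) as the percentage of a gene's reads that were edited, in the 2 siEDC4 libraries (left of each pair) and the 2 siNC libraries (right); points are libraries, bars their mean, and axes differ between panels. GAPDH A-to-I scores lay higher in both siEDC4 libraries (2.36 and 2.78 against 2.02 and 1.65%), and GAPDH and ENO1 were at 0 in the C-to-U panel in all libraries.

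Among the A-to-I scores, GAPDH had 2.36 and 2.78% in siEDC4 libraries, against 2.02 and 1.65% in siNC libraries, without overlap (0.49 ± 0.26, adjusted p = 0.845, edgeR). TPI1 had 1.48 and 1.32% in siEDC4 libraries, against 1.11 and 1.07% in siNC libraries, again without overlap (0.36 ± 0.30, adjusted p = 0.867, edgeR). PKM had 3.15 and 3.78% in siEDC4 libraries, against 2.86 and 3.81% in siNC libraries, and LDHA 2.18 and 2.13% against 2.02 and 2.15%. Their ranges overlapped. HK2, GPI and PGK1 had positive estimates (0.72, 0.51 and 0.18), as had ENO1 (0.41), and PFKP a negative one (-0.37) on 9 edited reads.

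Among the C-to-U scores, HK2 had 4.44 and 4.27% in siEDC4 libraries, against 2.99 and 3.52% in siNC libraries, without overlap (0.43 ± 0.39, adjusted p = 0.996, edgeR). PKM had 0.369 and 0.374% in siEDC4 libraries, against 0.497 and 0.514% in siNC libraries, also without overlap (-0.44 ± 0.48, adjusted p = 0.996, edgeR). LDHA had 3.46 and 2.89% in siEDC4 libraries, against 2.77 and 3.00% in siNC libraries, with overlap. PFKP varied the most, at 4.12 and 1.58% in siEDC4 libraries, against 1.10 and 0.920% in siNC libraries (1.52 ± 0.67, adjusted p = 0.996, edgeR; 0.68 without siEDC4 library 1). PGAM1 had 2.74 and 2.54% in siEDC4 libraries, against 1.26 and 1.52% in siNC libraries (0.95 ± 0.37, adjusted p = 0.996, edgeR). No gene of the surrounding lists passed in any of the 3 knockdown comparisons.

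Over the 6 comparisons together, the genes whose estimates lay nearest to the members' median were BAG6, PGLS, PHB, TMEM59 and PAK4. Likeness was the Euclidean distance over the 6 estimates, each divided by its SD over genes, and these genes lay at 0.488 to 0.527 among 8492 genes tested in all comparisons. The median was taken over the 7 members tested in all of them.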

How the data were processed

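The authors deposited raw counts per gene for the 4 sort libraries, per the file headers, with an annotated length per gene and the coordinates. They also deposited, for each editor and contrast, edited reads (counts), reads per gene and their fraction, the editing score, printed here as a percentage. The deposited reads were treated as estimated counts, since 3 broken lines of another gene are not whole numbers; those lines were dropped. Per the submitters' processing notes, reads went through featureCounts 2.0.1 and STAR 2.7.9a on hg38, with FastQC 0.11.9 and cutadapt 1.18 also named. Their annotation, strand setting and site calling were not given in the sources used here. RNA came by TRIzol extraction, per the labels' protocols.

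Abundance and knockdown reads were tested with edgeR 4.0.16 (R 4.3.3; TMM, filterByExpr, quasi-likelihood test, Benjamini-Hochberg over all genes tested, threshold 0.05). Editing was tested with the same test on edited and unedited reads, keeping genes edited in 2 or more libraries. TPM was made from counts and annotated lengths. DESeq2 1.42.0 and limma 3.58.1 (log2 of score plus 2.36, 0.575, 0.800 or 1.09%) were alternatives. Transcript features came from GENCODE v29. The labels give each library a batch number equal to its replicate number. The replicate block reads this as a pairing of same-numbered libraries, which is uncertain, and the main fits leave it out. Same-numbered deviations correlated at 0.089 over 10610 genes in the sort and -0.029 over 10206 genes in the knockdown. The siNC reads were summed and counted as 1 sample. Intervals and limits use 3 counts for a 0.

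Named genes were the 10 members and PGAM1, the called gene with the largest estimate each way from each surrounding list, EDC4, and the 5 genes nearest to the members' median; HK1, PFKL, PFKM and the LDHB scores were chosen after their values were seen. The members and lists were chosen with earlier results of these data known. The tests were also run on simulated data, which had the same spread beyond sampling noise in every group. The sorted and cytosol libraries differ in that spread, so the simulation is not used as support here.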

Additional observations from a re-analysis of the deposited data

How the results depend on the processing

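With all sort libraries kept, 6 to 8 members were lower under the alternatives tried for abundance, beside 7 in the main test. HK2 was the 1 member higher in each of them. The calls that came and went were those of ALDOA and PFKP. With 1 library left out, the HK2 estimate lay between 1.12 and 1.14. LDHA abundance changed sign with DESeq2 (0.011), without sorted P-body replicate 2 (0.024) and without cytosol replicate 2 (0.044; -0.12 without cytosol replicate 1), and PGAM1 with library size as the only scaling (-0.14), without sorted P-body replicate 1 (-0.083; 0.16 without replicate 2) and without cytosol replicate 1 (-0.021). Centring each library on its median score left 3307 genes called for A-to-I and 1688 for C-to-U. It left 1 member higher and 6 lower for A-to-I, and 1 higher and 1 lower for C-to-U. In the sort it turned the A-to-I estimates of HK2 (-0.70), GPI (-1.03), PFKP (-0.20), TPI1 (-0.23), GAPDH (-1.18), PGK1 (-1.17), ENO1 (-0.51) and PGAM1 (-0.038), and the C-to-U estimates of HK2 (-0.40), GPI (-0.18), PFKP (-0.43) and TPI1 (-1.71). By its construction, centring removes the shift that most genes share. With limma 3 members were higher for A-to-I and 2 for C-to-U. Leaving out sorted P-body replicate 2 left fewer members higher for C-to-U, and PFKP turned there (-0.37, and 2.94 without replicate 1). LDHA had C-to-U edited reads in the sorted libraries only, so it could not be tested with either of them left out.

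In the knockdown, centring turned the A-to-I estimates of PGK1 (-0.13), PKM (-0.25) and LDHA (-0.26) and the C-to-U estimates of GPI (-0.0088), TPI1 (-0.088) and LDHA (-0.054). Without siNC replicate 1, PKM A-to-I stood at -0.15 and PGK1 C-to-U at 0.048, and without siNC replicate 2 at 0.28 and -0.39. For reads, 60 genes passed in the main test, 154 with 4 libraries, 521 with 4 libraries and the replicate block, 3 with DESeq2 and 32 to 51 with an siNC library left out. With the replicate block 1 member was lower (PGK1), and 26 genes passed for A-to-I and 4 for C-to-U; centring gave 1 for C-to-U. Beyond PFKP abundance, PGK1 knockdown reads and MLXIPL A-to-I editing, the replicate block changed no other call of a named gene. Without an siEDC4 library the knockdown has no residual spread, so those values carry no test. The causes of these changes were not tested. Where 1 sort library is left out, its group adds no spread. Few edited reads limit the C-to-U values of PKM, PFKP, GAPDH and ENO1, and those of PGK1 in the sort. Few reads limit those of ALDOA.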

Other observations

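The sort and the knockdown come from separate editing tables, and no test was run across them, so their scores are set side by side as values only. PKM had an A-to-I score of 11.5 ± 0.0589% in sorted P-bodies and 12.2 ± 0.259% in cytosol (SD, n = 2 each), and 3.15 and 3.78% in siEDC4 libraries beside 2.86 and 3.81% in siNC libraries, made from total RNA. TPI1 had a C-to-U score of 0.518 ± 0.102% in sorted P-bodies and 0.363 ± 0.0978% in cytosol (SD, n = 2 each), and 3.21 and 2.62% in siEDC4 libraries beside 2.79 and 2.60% in siNC libraries. LDHA, listed with 0 edited reads of 16889 for C-to-U in cytosol, had 107 of 3867 and 102 of 3402 edited in siNC libraries. GAPDH and ENO1 had at most 1 C-to-U edited read in any library of either experiment.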
